A study of Homo sapiens with 6 samples.

Results

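Ribosome biogenesis was followed through 48 named rows of a gene expression table: the row of the 45S ribosomal RNA precursor, subunits and initiation factors of RNA polymerase I, and proteins that modify, cut and assemble ribosomal RNA in the nucleolus. They were picked by gene name from the 45019 rows of each file. The cells were MDA-MB-468, an established line of triple-negative breast cancer. One group was kept in 100 µM of the nitric oxide donor DETA/NO for 10 days, and the other group was untreated; no vehicle or spent donor control was among the samples. Cells of both groups are labelled day 10, and a replating interval of 48 h is listed for both groups. In the treated group the cells were trypsinised, pooled within each replicate and replated every 48 h. Total RNA was sequenced from 3 samples per group to see which transcripts change under long exposure to nitric oxide, and each value is a normalized read count per gene, scaled between libraries and not divided by gene length. DETA/NO replicates 1 and 2 had files with the same values throughout, which were counted once, as the shared library, so that 2 DETA/NO libraries stood against 3 untreated ones. The labels do not say that the replicates were separate cultures from the start, so the p-values measure the spread between these samples.

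RNA polymerase I transcribes the ribosomal DNA into a single long precursor from which the 18S, 5.8S and 28S ribosomal RNAs are cut. Small nucleolar ribonucleoproteins (snoRNPs) guide its chemical modification, a large complex called the small subunit processome folds and cleaves its first part, and separate factors assemble the large subunit and escort both subunits to the cytoplasm. Many of these genes are known targets of MYC, and the output of the nucleolus is known to follow growth signals in cancer cells.

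Most of the genes were modestly higher after 10 days of DETA/NO. Of 42 members with a mean value of at least 10, the level needed for testing, 36 were higher (limma on log2(value + 1), Benjamini-Hochberg adjusted p under 0.05 over 16409 genes) and 0 were lower. Over all tested genes 21.7% were called higher and 21.7% lower. For 38 of the 42 each DETA/NO library exceeded each of the 3 untreated ones, as it did for 30.4% of all tested genes, and for 0 of the 42 each was below, as for 30.8% of all. On the recovered reads edgeR called 36 of the 42 higher (22.1% of all genes) and DESeq2 called 33 (17.0% of all). The members' median log2 fold change was 0.26, a 1.20-fold rise, and the values ran between 0.01 for UBTF and 0.51 for RRP9. The median over all tested genes was -0.00016, and 16.6% of all tested genes had a log2 fold change above the members' median. The genes called higher over the whole table had a median log2 fold change of 0.27, close to that of the members. No member reached 2-fold, whereas 362 genes in the table were called at least 2-fold higher.

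The rise was seen in both DETA/NO libraries. Set against the mean of the untreated libraries, the median member stood 0.22 higher on the log2 scale in the shared library, where 40 of 42 were above that mean, and 0.26 higher in replicate 3, where all 42 were above it. The untreated libraries themselves had member medians of 0.01, 0.02 and -0.03. The signed difference of replicate 3 minus the shared library had a median of 0.0024, with 21 of the 42 members higher in replicate 3. That median lets rises and falls cancel and does not measure their size. The largest absolute difference between the 2 libraries was 0.32, for NOP14.

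**Figure D1:**
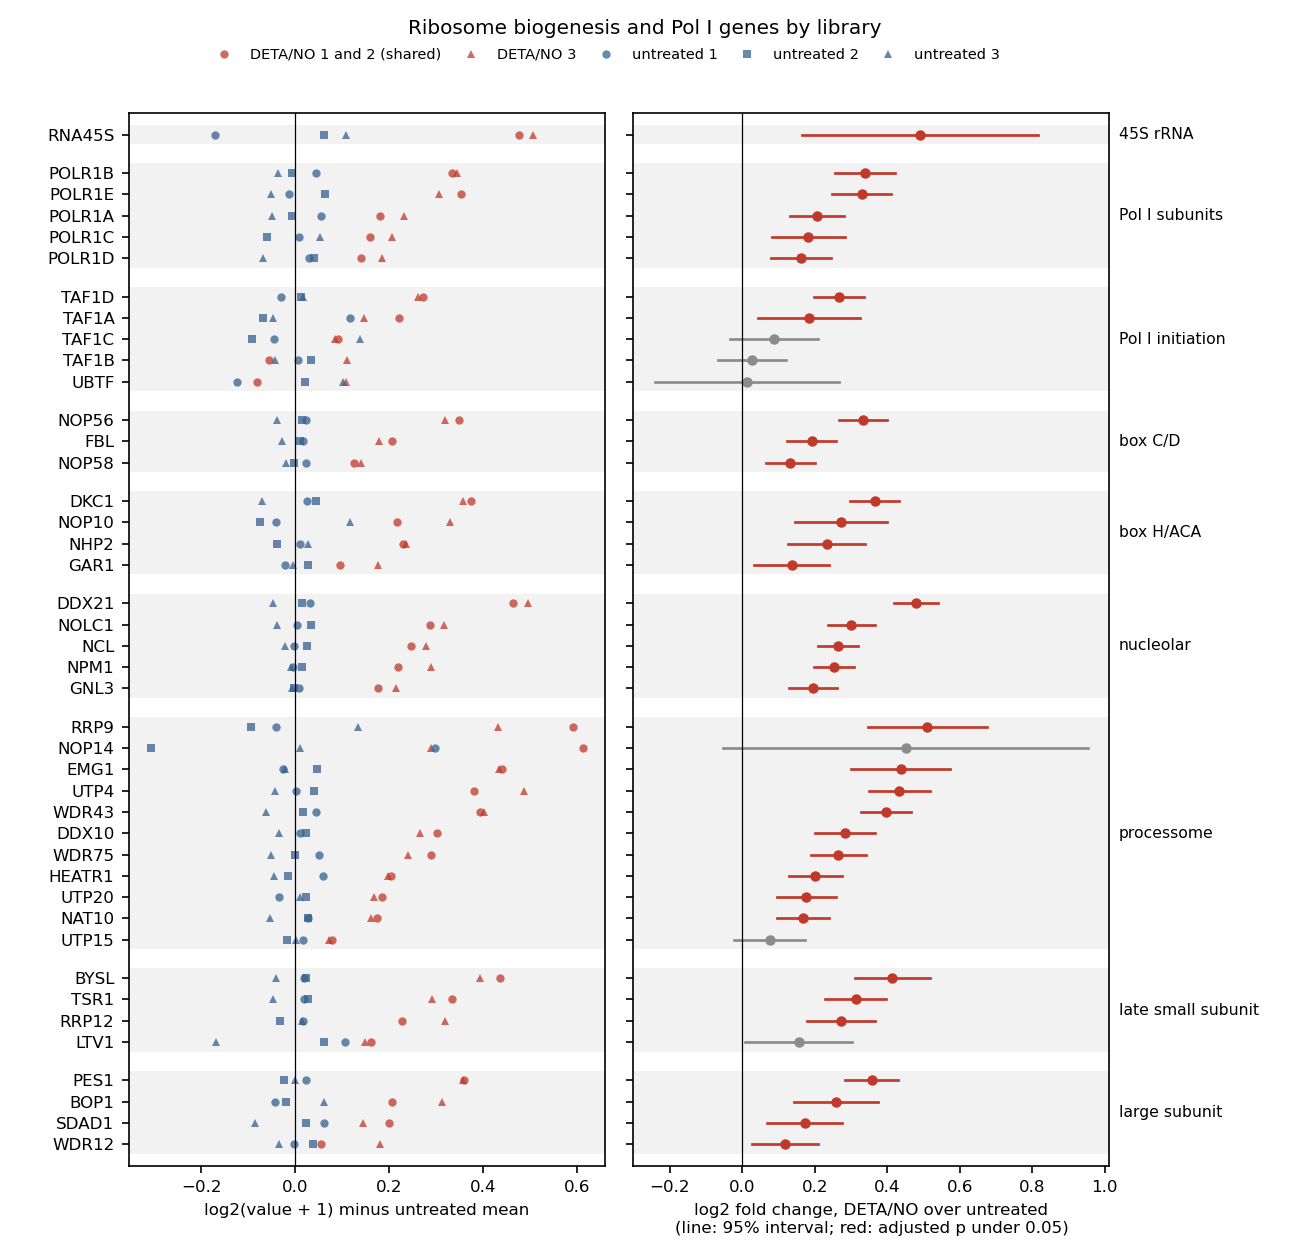
Left, log2(value + 1) of each tested member minus its mean over the untreated libraries, by role, with 1 point per library (red, 2 DETA/NO libraries; blue, 3 untreated libraries); right, the log2 fold change of DETA/NO over untreated with its 95% interval, red where called and grey where not. Both red points lie to the right of all blue points for 38 of 42 members, and 36 members are called.

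The libraries held 28897422 and 34210950 reads with DETA/NO and between 32872785 and 34637343 untreated. All 10 markers of the line, among them EGFR, keratins and EPCAM, passed the filter, 4 were higher and 1 lower, and they summed to 417001 and 424339 normalized reads with DETA/NO, against 383192, 385577 and 391122 untreated. The markers of other cell types summed to far less than those of the line. Their sums were higher with DETA/NO for the fibroblast and endothelial lists and lower for the immune list. Of 6 fibroblast markers 1, COL1A1, passed the filter and was higher, and the list summed to 840 to 850 normalized reads with DETA/NO and 578 to 635 untreated. Of 6 immune markers 1 was higher and 1 lower, CD68 was listed at 0, and the sums were 433 to 495 with DETA/NO and 925 to 986 untreated. Of 6 endothelial markers 5 passed the filter, 3 were higher and 0 lower. The endothelial sums were 523 to 577 with DETA/NO and 333 to 368 untreated. Mitochondrially encoded rows took 8.49% and 8.93% of reads with DETA/NO and 9.21%, 9.52% and 9.48% untreated. Their part in the members' values was not tested. Scaling without the ribosomal and mitochondrial rows left 33 of 42 members higher, against 19.5% of all genes.

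A short sequence that played no part in choosing the genes recurred in their promoters. Of 41 members with a RefSeq promoter window (GRCh38.p14; 250 bases before to 50 after the gene start), 17 held CACGTG, the E-box hexamer to which MYC with its partner MAX, and other factors, are known to bind; the word reads the same on both strands. Among members that were tested for expression the share was 15 of 36 (41.7%), against 12.0% of 10996 tested genes with a window and 8.77% of 27305 genes with a window in all. In 16 of the 17 (94.1%) an E-box lay within 40 bases of the start, against 419 of 1322 tested genes with an E-box (31.7%); the limit of 40 was chosen after the positions were seen. The 10 stretches below are the called members whose E-box, in capitals, lies wholly within 70 bases before and 30 bases from the start. Each is printed 5′ to 3′ on the strand of its gene.

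FBL: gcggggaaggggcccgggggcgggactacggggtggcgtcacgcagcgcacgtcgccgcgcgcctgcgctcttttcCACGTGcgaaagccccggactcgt
NOP10: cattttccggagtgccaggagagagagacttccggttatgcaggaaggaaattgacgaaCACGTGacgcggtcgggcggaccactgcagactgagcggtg
GNL3: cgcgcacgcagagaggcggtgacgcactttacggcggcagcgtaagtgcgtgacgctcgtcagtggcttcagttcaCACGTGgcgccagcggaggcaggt
DDX21: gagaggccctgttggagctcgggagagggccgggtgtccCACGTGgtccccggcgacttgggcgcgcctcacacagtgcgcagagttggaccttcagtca
RRP9: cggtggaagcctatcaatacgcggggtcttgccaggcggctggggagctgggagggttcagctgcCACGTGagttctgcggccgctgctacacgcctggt
UTP4: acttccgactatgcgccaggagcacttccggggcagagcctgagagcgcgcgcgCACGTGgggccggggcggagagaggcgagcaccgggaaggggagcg
UTP20: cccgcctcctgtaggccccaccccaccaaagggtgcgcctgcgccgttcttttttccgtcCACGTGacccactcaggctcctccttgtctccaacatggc
WDR43: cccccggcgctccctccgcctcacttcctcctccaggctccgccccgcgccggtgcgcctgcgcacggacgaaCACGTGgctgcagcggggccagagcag
NAT10: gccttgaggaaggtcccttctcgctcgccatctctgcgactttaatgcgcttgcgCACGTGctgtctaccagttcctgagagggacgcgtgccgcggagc
PES1: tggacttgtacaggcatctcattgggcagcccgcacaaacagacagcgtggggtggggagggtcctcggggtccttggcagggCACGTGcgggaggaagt

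These stretches lie, with the strand in brackets, as FBL at chr19:39846350-39846449 (minus), NOP10 at chr15:34343107-34343206 (minus), GNL3 at chr3:52685962-52686061 (plus), DDX21 at chr10:68956577-68956676 (plus) and RRP9 at chr3:51941875-51941974 (minus). The others are UTP4 at chr16:69132579-69132678 (plus), UTP20 at chr12:101280035-101280134 (plus), WDR43 at chr2:28894597-28894696 (plus), NAT10 at chr11:34105559-34105658 (plus) and PES1 at chr22:30591881-30591980 (minus). Among tested members, 13 of 15 with the E-box were called higher, with a median log2 fold change of 0.27, and 17 of 21 without it, with a median of 0.23; that difference was not tested. Other words were searched on both strands. TCGCGAGA was in 16.7% of the tested members with a window, against 2.56% of tested genes, and CCGGAAGT, the core bound by ETS factors, was in 27.8% against 8.66%. Shares were closer for the CCAAT box (52.8% against 42.5%), GGGCGG bound by SP1 (77.8% against 73.4%), GCATGCGC bound by NRF1 (5.56% against 5.73%), AAGATGGCG bound by YY1 (2.78% against 4.03%) and TATAAA (5.56% against 9.49%). A match describes these letters in this window and does not show binding.

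**Figure D2:**
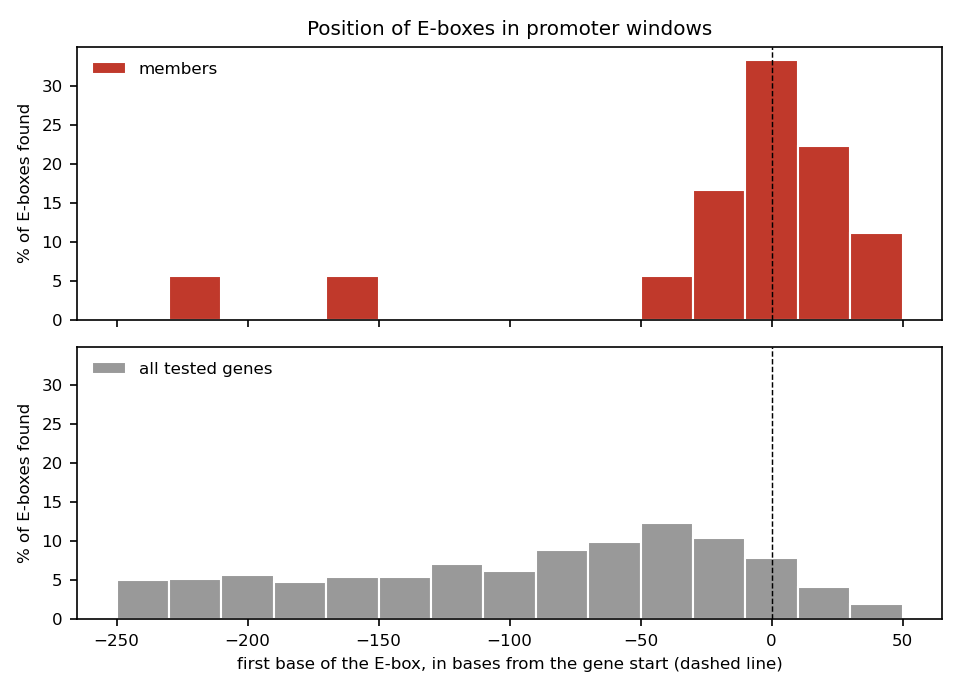
Positions of CACGTG relative to the gene start in RefSeq promoter windows, in 20-base bins, as a percent of the E-boxes found in each set (top, members; bottom, all tested genes). The tallest members' bar is the bin that spans the start, with 33.3% of their E-boxes against 7.85% for tested genes, and 16 of 17 members have an E-box within 40 bases of the start.

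MYC itself was not called. It had 9206 and 10342 normalized reads with DETA/NO, against 9768, 10213 and 11114 untreated, so the groups overlapped (log2 fold change -0.09, 95% interval -0.30 to 0.13, adjusted p = 0.475). Its repressive relatives that share MAX split by gene. MXI1 (0.32) and MXD1 (0.30) rose on the log2 scale, whereas MXD4 (-0.56) and MXD3 (-0.31) fell, although other genes overlap 48.4% of the span of MXD3. Of 11 genes of the MYC network 10 were tested, 4 rose and 2 fell, against 21.7% of all tested genes in each direction. With limma without trend and robust 2 rose (13.8% of all genes).

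The 45S precursor row, RNA45S, was higher with DETA/NO, with a log2 fold change exceeded among the tested members by that of RRP9 alone and with a wide interval. It held 125818 and 128502 normalized reads with DETA/NO, against 80441, 94440.1 and 97607 untreated, and the groups did not overlap. The means were 127159.8 ± 1898 with DETA/NO (SD, n = 2) and 90829 ± 9135 untreated (SD, n = 3), a log2 fold change of 0.49 (SE 0.11, 95% interval 0.16 to 0.82, adjusted p = 0.0396 with limma). As a share of all reads the row took 0.393% (95% Wilson interval 0.391 to 0.395) and 0.396% (0.393 to 0.398) with DETA/NO, against 0.253%, 0.293% and 0.305% untreated. These intervals cover counting error only. The ratio of mean shares was 1.39, with an exact two-sided permutation p of 0.2, the smallest that 10 arrangements of 5 libraries can give. Untreated replicate 1 was the lowest, and without it the log2 fold change was 0.41. The call depended on which libraries were kept. The adjusted p was 0.165 without the shared DETA/NO library, 0.174 without DETA/NO replicate 3, 0.103 without untreated replicate 2 and 0.0668 without untreated replicate 3. The row cannot tell precursor from mature ribosomal RNA, since both carry its sequence, and the sources used here do not give how ribosomal RNA was removed. For bulk RNA, a change in the number of cells of a kind and a change in RNA per cell cannot be told apart.

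**Figure D3:**
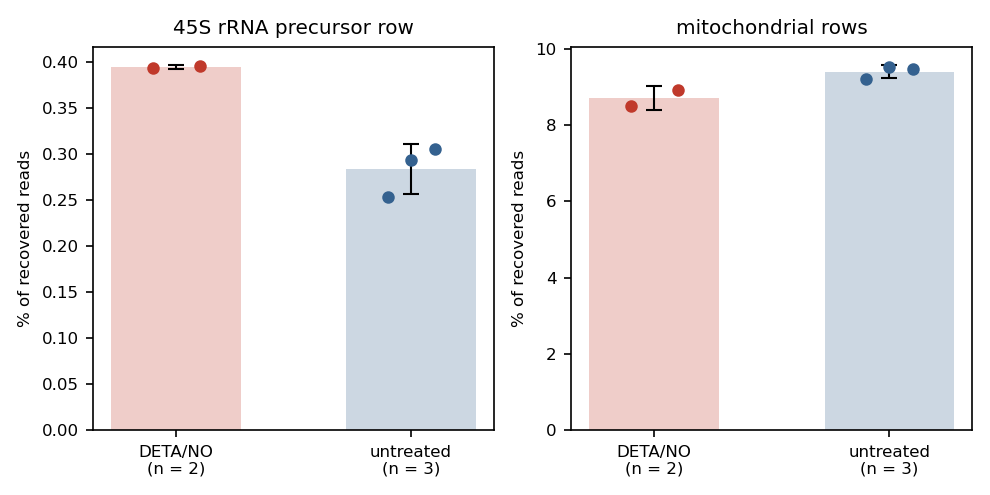
Percent of recovered reads in the RNA45S row (left) and in mitochondrial rows (right); points are libraries, bars are group means and error bars are SDs (DETA/NO, n = 2; untreated, n = 3). For RNA45S both DETA/NO libraries, at 0.393% and 0.396%, lie above the 3 untreated ones, of which the highest is at 0.305%; for mitochondrial rows both lie below.

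The 5 RNA polymerase I subunits among the members all rose, with log2 fold changes of 0.16 to 0.34 and a median of 0.21, and for none of them did the groups overlap. POLR1A, the largest catalytic subunit, had 4416 and 4571 normalized reads with DETA/NO, against 4047, 3879 and 3762 untreated (log2 fold change 0.21, SE 0.036, adjusted p = 2.3e-05). POLR1B, which completes the active site, had 2588 and 2608 with DETA/NO, against 2116, 2043 and 2001 untreated, the largest rise of the 5 (log2 fold change 0.34, SE 0.041, adjusted p = 3.23e-08). POLR1E, part of a dimer specific to RNA polymerase I that aids initiation and elongation, had 3224 and 3122 with DETA/NO, against 2504, 2639.9 and 2437 untreated (log2 fold change 0.33, SE 0.04, adjusted p = 4.28e-08). Both of these exceeded the untreated libraries by more than the whole untreated range. The 2 subunits shared with RNA polymerase III had the smallest log2 fold changes of the 5. POLR1C had 1424 and 1473 with DETA/NO, against 1283, 1223 and 1323 untreated (log2 fold change 0.18, SE 0.049, adjusted p = 0.00307), and other genes overlap 88.7% of its span. POLR1D had 2803 and 2892 with DETA/NO, against 2595, 2614 and 2426 untreated (log2 fold change 0.16, SE 0.04, adjusted p = 0.00138). Of all 13 subunits of the enzyme that were tested 6 were called higher and 0 lower, and 5 of the 6 are the members above. Of the 8 that are no members 1 was called higher, where 21.7% of all tested genes were. These 8, among them the specific subunits POLR1F, POLR1G and POLR1H (listed as TWISTNB, CD3EAP and ZNRD1), had a median log2 fold change of 0.06. Of these 8 the call fell on POLR2K, shared by all 3 nuclear polymerases (log2 fold change 0.11, adjusted p = 0.0282). It is named after its value was seen, and its call was lost without DETA/NO replicate 3 (adjusted p = 0.183), untreated replicate 2 (0.0571) or untreated replicate 3 (0.0721).

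The initiation factors were the group with the fewest calls. Of 6 members 5 were tested and 2 rose, with a median log2 fold change of 0.09. TAF1D, a subunit of selectivity factor SL1, which places the polymerase on the ribosomal DNA promoter, had 4813 and 4775 normalized reads with DETA/NO, against 3902, 4019 and 4031 untreated (log2 fold change 0.27, SE 0.034, adjusted p = 1.07e-07). Within its span on the same strand lie 8 named snoRNAs, and other genes overlap 81.2% of that span. TAF1A, another SL1 subunit, had 695 and 660.0 with DETA/NO, against 646, 568 and 577 untreated (log2 fold change 0.18, SE 0.069, adjusted p = 0.0306). The TAF1A groups were barely separated, and its call was lost in 7 of 19 alternative fits. The adjusted p was 0.115 with DESeq2, 0.133 without untreated replicate 2 and 0.0595 without untreated replicate 3. Without the shared DETA/NO library the TAF1A log2 fold change was 0.15. TAF1B, a TFIIB-like SL1 subunit, had 1993 and 2236 with DETA/NO, against 2082, 2122 and 2012 untreated, and the groups overlapped (log2 fold change 0.03, 95% interval -0.07 to 0.12). For TAF1C, a further SL1 subunit, the log2 fold change was 0.09 and its interval -0.03 to 0.21. Without untreated replicate 3 TAF1C was called higher (log2 fold change 0.16, adjusted p = 0.0162). UBTF, which encodes the architectural factor UBF that keeps ribosomal genes open, had 141 and 160.5 with DETA/NO, against 137, 151 and 159.9 untreated. Its log2 fold change was 0.01 with a wide interval of -0.24 to 0.27. Other genes overlap 70.9% of the UBTF span.

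All 7 snoRNP proteins among the members rose. The 3 box C/D proteins, which carry out 2′-O-methylation of ribosomal RNA, were higher, with a median log2 fold change of 0.19. NOP56, a scaffold of the particle, had 7769.7 and 7621 normalized reads with DETA/NO, against 6209, 6167 and 5947 untreated (log2 fold change 0.33, SE 0.032, adjusted p = 3.65e-10). FBL, the methyltransferase fibrillarin, had 5728 and 5618 with DETA/NO, against 5029, 5002 and 4873 untreated (log2 fold change 0.19, SE 0.033, adjusted p = 1.6e-05). NOP58, the partner of NOP56, had 5190.1 and 5250.2 with DETA/NO, against 4839, 4751 and 4697 untreated (log2 fold change 0.13, SE 0.033, adjusted p = 0.00145). In all 3 the DETA/NO libraries lay above every untreated one, with the NOP56 difference the widest. SNU13, the fourth core protein of this particle and no member, is named after its value was seen. It had 4606 and 4545 normalized reads with DETA/NO, against 4369.5, 4286 and 4439 untreated, separate groups whose difference was not called (log2 fold change 0.07, adjusted p = 0.106; 0.0491 without untreated replicate 3).

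All 4 box H/ACA proteins, which turn uridine into pseudouridine and also bind telomerase RNA, were higher, with a median of 0.25. DKC1, the pseudouridine synthase dyskerin, had 10505 and 10373 normalized reads with DETA/NO, against 8253, 8353 and 7722 untreated (log2 fold change 0.37, SE 0.033, adjusted p = 1.17e-10). NHP2, a small RNA-binding subunit, had 1202 and 1208 with DETA/NO, against 1033, 999 and 1044 untreated (log2 fold change 0.23, SE 0.052, adjusted p = 0.000437). NOP10, which braces the DKC1 active site, had 927 and 1003 with DETA/NO, against 776, 757 and 865 untreated (log2 fold change 0.27, SE 0.062, adjusted p = 0.000632). None of these groups overlapped. GAR1, which helps release the modified RNA, had 1204 and 1272 with DETA/NO, against 1109.6, 1148 and 1123 untreated (log2 fold change 0.14, SE 0.051, adjusted p = 0.0308). The GAR1 call was lost in 6 of 19 alternative fits, among them DESeq2 (adjusted p = 0.101) and limma without untreated replicate 1 (0.0913). Without DETA/NO replicate 3 the GAR1 log2 fold change was 0.10.

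The 5 abundant nucleolar proteins all rose, by 0.19 to 0.48 on the log2 scale. DDX21, an RNA helicase that couples RNA polymerase I transcription to processing, had 19141 and 19571 normalized reads with DETA/NO, against 14195, 14040.0 and 13444 untreated. Its DETA/NO mean was 19356 ± 304 (SD, n = 2) and its untreated mean 13893 ± 397 (SD, n = 3), a 1.39-fold difference with the smallest adjusted p of the 48 (log2 fold change 0.48, SE 0.03, adjusted p = 1.31e-14). NCL, nucleolin, had 38300.0 and 39169 with DETA/NO, against 32221, 32838 and 31790.1 untreated (log2 fold change 0.26, SE 0.027, adjusted p = 1.52e-09). NPM1, nucleophosmin, a histone chaperone and shuttle of the granular nucleolus, had 53860.5 and 56567 with DETA/NO, against 46135, 46781 and 45997 untreated (log2 fold change 0.25, SE 0.027, adjusted p = 3.56e-09). The groups were apart by several times their SD for all 3. NOLC1, a chaperone of snoRNPs, rose by 0.30 and GNL3, nucleostemin, by 0.19, with 38.6% of the GNL3 span overlapped.

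The small subunit processome had 11 tested members, of which 9 rose, with a median log2 fold change of 0.28. WDR43 and WDR75, both of the subcomplex that binds the start of the precursor, both rose. WDR43 had 7047 and 7091 normalized reads with DETA/NO, against 5533, 5433 and 5143 untreated (log2 fold change 0.40, SE 0.034, adjusted p = 2.73e-11). WDR75 had 4183 and 4041 with DETA/NO, against 3546, 3421 and 3302 untreated (log2 fold change 0.27, SE 0.037, adjusted p = 5.64e-07). UTP4, also called cirhin and of the same subcomplex, had 3015 and 3249 with DETA/NO, against 2321, 2384 and 2249 untreated (log2 fold change 0.43, SE 0.041, adjusted p = 2.48e-10), and 45.5% of its span is overlapped. RRP9, which binds the U3 snoRNA, had the largest log2 fold change of the 42 and is given for that reason, after its value was seen. It had 615 and 551 with DETA/NO, against 397, 383 and 448 untreated (log2 fold change 0.51, SE 0.08, adjusted p = 3.9e-06). The RRP9 groups did not overlap. The methyltransferase EMG1 rose by 0.44, with 80.1% of its span overlapped. The RNA helicase DDX10 (0.28), the large scaffold proteins HEATR1 (0.20), UTP20 (0.18) and NAT10, which acetylates 18S ribosomal RNA (0.17), rose less. UTP15, of the same early subcomplex as WDR43, had 1347 and 1341 with DETA/NO, against 1290.2, 1259.6 and 1277 untreated, separate groups whose difference was not called (log2 fold change 0.08, adjusted p = 0.215). NOP14, a component of the processome, had 36 to 45 normalized reads with DETA/NO and 24 to 36 untreated, and the groups overlapped (log2 fold change 0.45, 95% interval -0.05 to 0.95), with 93.5% of its span overlapped by other genes.

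Of the 5 late factors of the small subunit 4 were tested and 3 rose, with a median of 0.29. BYSL, bystin, needed for the last steps of 18S maturation, had 1427 and 1385 normalized reads with DETA/NO, against 1068, 1072 and 1026 untreated (log2 fold change 0.41, SE 0.051, adjusted p = 4.84e-08). TSR1, a GTPase-like protein that occupies the maturing subunit, had 2515 and 2441 with DETA/NO, against 2022, 2033 and 1932 untreated (log2 fold change 0.31, SE 0.041, adjusted p = 2.08e-07). RRP12, which takes part in export of the subunits, had 1749 and 1862 with DETA/NO, against 1511, 1461 and 1507 untreated (log2 fold change 0.27, SE 0.046, adjusted p = 1.1e-05). All 3 had every DETA/NO library above every untreated one by more than the range of either group. LTV1, an export adaptor, had 695 and 688 with DETA/NO, against 668, 648 and 553 untreated. The LTV1 groups were separate but its difference was not called (log2 fold change 0.16, adjusted p = 0.0841). It was called without untreated replicate 1 (adjusted p = 0.0419). With a block on replicate number the adjusted p was 0.0401 or 0.0258, with the shared library as number 1 or 2.

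Of the 8 large subunit factors 4 were tested and all 4 rose, with a median of 0.22. PES1, BOP1 and WDR12 form the PeBoW complex, which is needed to process 5.8S and 28S ribosomal RNA, and its 3 subunits rose by unequal amounts. PES1 had 3747 and 3742 normalized reads with DETA/NO, against 2971, 2876 and 2923 untreated (log2 fold change 0.36, SE 0.036, adjusted p = 1.05e-09). BOP1, which joins the other two subunits, had 1042 and 1121 with DETA/NO, against 876, 892 and 943 untreated (log2 fold change 0.26, SE 0.057, adjusted p = 0.000361). WDR12 had 1981 and 2160.3 with DETA/NO, against 1903, 1958 and 1861 untreated (log2 fold change 0.12, SE 0.044, adjusted p = 0.0323). The lower DETA/NO library of WDR12 lay just above its highest untreated one, and the call was lost in 9 of 19 alternative fits. The adjusted p was 0.0964 with DESeq2, 0.0732 with quantile normalization, 0.0834 without untreated replicate 1 and 0.0587 without untreated replicate 3. Without DETA/NO replicate 3 the WDR12 log2 fold change was 0.055. SDAD1, a factor for export of the large subunit in yeast, had 1474 and 1419 with DETA/NO, against 1339.9, 1305 and 1209 untreated (log2 fold change 0.17, SE 0.051, adjusted p = 0.00641). Its call was lost without the shared DETA/NO library (adjusted p = 0.0769).

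The other 6 members could not be compared. RRN3 (also called TIF-IA), PNO1, NOP16, RRS1 and NIP7 were listed at 0 in every library, and NOP2 had 1 read in DETA/NO replicate 3 and 0 elsewhere. RRN3 links RNA polymerase I to SL1, PNO1 serves the last cut of 18S ribosomal RNA, NOP2 methylates 28S ribosomal RNA, and RRS1, NOP16 and NIP7 act in large subunit assembly. Dividing cells use these genes, and other genes overlap 99.8% to 100% of the span of 5 of them and 32.2% of RRS1 in GENCODE release 29, so no level was read from them. Of 25 tested members with under 10% of their span overlapped, 23 were higher, and of 6 with 50% or more, 4 were higher.

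The 8 members with snoRNAs within their span on the same strand were all higher, as were 27 of the 33 other tested protein-coding members. TAF1D, NOP56, NOP58, NCL, GNL3, WDR43, DKC1 and TSR1 carry 29 named snoRNAs in GENCODE. Their median log2 fold change was 0.29, against 0.23 for the other 33, and that difference was not tested. Of 14 snoRNA host genes that make no protein 12 were tested. Of these 11 rose (91.7%, against 21.7% of all tested genes) and 0 fell, with a median of 0.32. SNHG7 had 936 and 978 normalized reads with DETA/NO, against 555, 539 and 599.8 untreated (log2 fold change 0.76, SE 0.065, adjusted p = 2.25e-11), and SNHG1 rose by 0.43.

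Other genes of the pathway were listed by function, and their counts stand beside the 21.7% of all tested genes called in each direction. Of 38 tested small subunit assembly genes outside the members 30 rose and 0 fell, with a median log2 fold change of 0.21, and PWP2 (0.40) and AATF (0.36) had the smallest adjusted p. Of 54 tested large subunit assembly genes 40 rose, with a median of 0.19, and LYAR (log2 fold change 0.57) and RSL1D1 (0.38) had the smallest adjusted p. One of them, SPATA5, fell by 0.17; it was not called without the shared DETA/NO library (adjusted p = 0.0908) or untreated replicate 1 (0.0687), and without untreated replicate 3 the number that fell was 2. Of the 13 other RNA polymerase I genes, which include the 8 subunits above, 5 rose and 0 fell, with a median of 0.10. The number that rose was 3 without untreated replicate 2 (19.2% of all genes) or untreated replicate 3 (21.7%). Without untreated replicate 3 the number that fell was 2. MYBBP1A, a nucleolar protein that binds MYB, rose by 0.56. BAZ2A, the TIP5 subunit of a complex that silences ribosomal DNA, rose by 0.13, and lost its call without the shared DETA/NO library (adjusted p = 0.0585).

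Of 20 tested RNA polymerase III genes, which serve 5S ribosomal RNA and transfer RNA, 8 rose, or 5 without the shared DETA/NO library. Among them GTF3C1 rose by 0.27 and POLR3A by 0.25, whereas POLR3GL, an alternative form of subunit POLR3G, fell by 0.45 with 92.7% of its span overlapped. Of 11 snoRNP assembly genes 4 rose (36.4%) and 1 fell. TCOF1, whose product treacle holds RNA polymerase I and snoRNPs in the nucleolus, had 5919 and 5726 normalized reads with DETA/NO, against 3678, 3687 and 3743 untreated (log2 fold change 0.65, SE 0.034, adjusted p = 1.55e-16), a larger log2 fold change than any member's. RUVBL2 rose by 0.34, and ZNHIT6, a box C/D assembly factor, fell by 0.32. Of 15 tested genes of ribosomal RNA exonucleases and the exosome 7 rose (46.7%, against 21.7% of all tested genes) and 1 fell. The number that rose was 4 with DESeq2 (17.0% of all genes) and 3 with limma without trend and robust (13.8%). With quantile normalization 2 fell. EXOSC2 (0.33) and EXOSC10 (0.20) rose and MPHOSPH6 fell by 0.20.

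Of 7 abundant nuclear and small noncoding RNAs 2 were tested and none was called: MALAT1 (log2 fold change 0.04) and NEAT1 (-0.04), both long nuclear RNAs. Without DETA/NO replicate 3 MALAT1 was called higher (0.13, adjusted p = 0.0347), and scaled without ribosomal and mitochondrial rows NEAT1 was called lower (-0.06, adjusted p = 0.0497). Of 13 mitochondrial mRNAs 10 fell and 2 rose, with a median of -0.19; no rise was called without DETA/NO replicate 3 or untreated replicate 1, and 1 without untreated replicate 2.

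**Figure D4:**
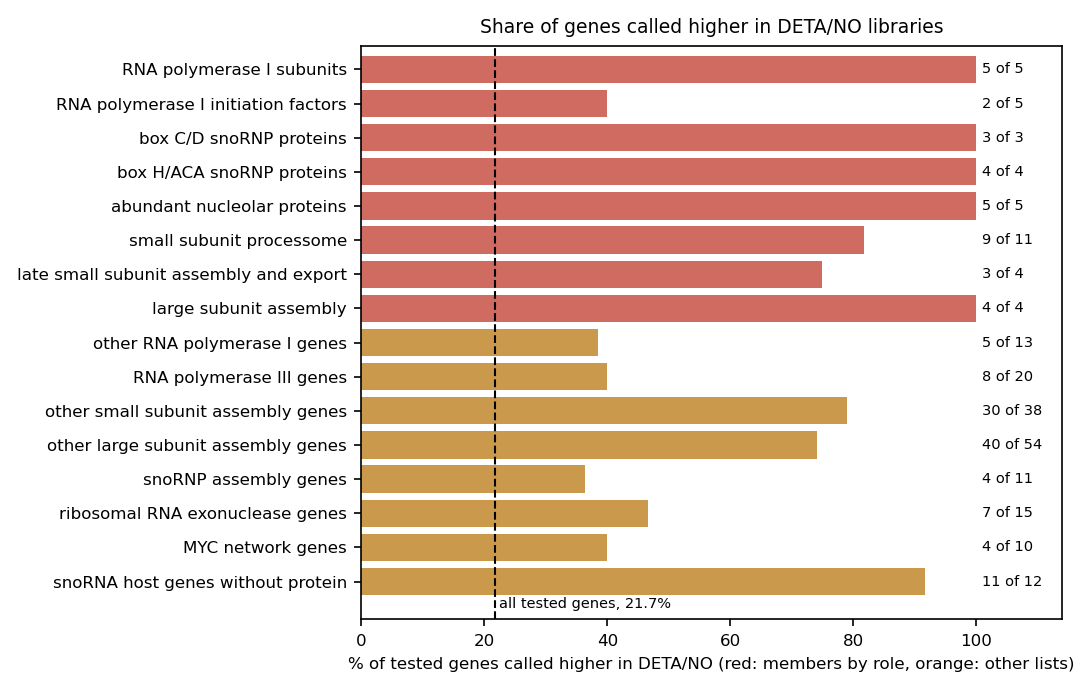
Percent of tested genes called higher with DETA/NO, with the number called and tested, in role groups of the members and in other lists. The line marks the 21.7% of all tested genes. The RNA45S row and the marker lists are not drawn. Neither are the abundant nuclear and small noncoding RNAs (0 of 2) and the mitochondrial mRNAs (2 of 13, 15.4%), which lie below 21.7%. All of the members' groups lie above the line, from 2 of 5 initiation factors to all tested members among the polymerase subunits, snoRNP proteins, abundant nucleolar proteins and large subunit factors.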

How the data were processed

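Total RNA of MDA-MB-468 cells, 3 DETA/NO and 3 untreated samples by their titles and treatment labels, was deposited as 1 normalized read count (signal) per gene. The submitters' processing notes name TopHat2 2.1.1 with Bowtie2 2.5.0.0, featureCounts 2.0.3 from Subread, DESeq2 1.38.3 in R 4.2.2, FastQC 0.11.9, MultiQC 1.14, deepTools 3.5.1 and GRCh38, and no source used here gives the annotation or how reads in overlapping genes were counted. For every library 100% of values were whole reads times 1 factor (tolerance 0.01), which gave reads back. The 27 rows named as dates, 0.241% to 0.249% of reads, were kept and not named.

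The members and lists were chosen with earlier results of these data known. limma 3.58.1 (trend, robust) in R 4.3.3 was run on log2(value + 1) of all genes with a mean of at least 10; fold changes on that scale understate low genes. Each role group was named through its 3 smallest adjusted p, the polymerase subunits and groups of up to 4 genes in full, and other lists through up to 2 genes a direction. edgeR 4.0.16 and DESeq2 1.42.0 on recovered reads, other scalings, filters and pseudocounts, a block on replicate number, and fits without each library in turn were the alternatives. Python 3.11.15, pandas 2.3.3, numpy 2.4.6 and scipy 1.17.1 served the rest. Of 45017 row names 41253 matched GENCODE release 29 (GRCh38), which gave overlaps, with 47 of the 48 members; promoters came from RefSeq.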

Additional observations from a re-analysis of the deposited data

How the results depend on the processing

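Of the 36 called members, 26 kept their call in all 19 alternatives. The members called higher numbered 27 with limma without trend and robust (13.8% of all genes), 33 with DESeq2 (17.0%) and 36 with edgeR (22.1%). When 1 untreated library was left out, 34 or 35 were called higher, against 18.8% to 21.7% of all genes. None was lower in any alternative. Genes called higher over the whole table fell to 2262 without trend and robust. RNA45S kept a log2 fold change of 0.49 without the filter on low values but was no longer called (adjusted p = 0.0717), and leaving out 1 library gave 0.41 to 0.54 (0.51 without the shared DETA/NO library). The members' median was 0.22 to 0.25 without DETA/NO replicate 3 or an untreated library and 0.26 without the shared DETA/NO library. UBTF reversed to -0.018 with the identical DETA/NO files entered separately and -0.00598 without ribosomal and mitochondrial rows, and gave -0.081 to 0.064 without DETA/NO replicate 3 or an untreated library and 0.107 without the shared one, below 0 without DETA/NO replicate 3 and without untreated replicate 1. TAF1B reversed to -1.777e-05 with the files entered separately and gave -0.055 to 0.045 without DETA/NO replicate 3 or an untreated library and 0.1105 without the shared one, below 0 without DETA/NO replicate 3. MALAT1 reversed to -0.052 without the shared library. The causes were not tested. Without trend and robust the calls were 18 small subunit, 23 large subunit, 2 other RNA polymerase I, 3 RNA polymerase III, 3 exonuclease and 2 MYC network genes higher; DESeq2 gave 2 other RNA polymerase I and 4 exonuclease genes.

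Deviations of same-numbered libraries from their group means correlated at 0.00106 to 0.0301, with the shared library set against both untreated replicates 1 and 2. With 2 DETA/NO libraries these deviations mirror each other, so the correlations cannot settle whether replicate numbers paired the samples. With a replicate block, 36 members were higher with the shared library as number 1 (20.2% of all genes). With the shared library as number 2, 35 were higher (19.2% of all genes) and UBTF was -0.048.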
